A study of Mus musculus with 10 samples.

Results

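The synaptic vesicle and release machinery was described as 29 named genes, found on the array by gene symbol, in motor neurons of 3 origins profiled on Illumina MouseRef-8 bead arrays. All cells carried the Hb9::GFP transgene, a green fluorescent protein (GFP) reporter under the promoter of the motor neuron gene Hb9. Embryonic cells came from the spinal cord of C57BL/6 embryos at E13.5. ES-derived cells came from directed differentiation of V6.5, a mouse embryonic stem (ES) cell line, and induced cells came from C57BL/6 embryonic fibroblasts that overexpressed 10 unnamed transcription factors. FACS on GFP fluorescence then divided each origin into GFP-high and GFP-medium gates, with 2 arrays a gate for embryonic cells, 2 arrays a gate for ES-derived cells and 1 array a gate for induced cells, 10 arrays in all. The comparisons ask how the reprogrammed cells and the stem cell cultures differ from the embryonic motor neurons in the genes of transmitter release, and whether the brighter gate differs from the dimmer one. How many embryos, differentiations or fibroblast cultures lie behind the arrays is not stated in the labels, and the ES-derived cells come from 1 line. The p-values therefore describe the scatter between these arrays, part of which may be technical.

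Neurons store transmitter in vesicles that are filled, tethered near the presynaptic membrane, primed and then fused with it when calcium enters. Fusion is driven by the SNARE proteins, with a vesicle SNARE (synaptobrevin) zipping onto the plasma membrane SNAREs syntaxin and SNAP-25. Synaptotagmins sense calcium, complexins clamp and assist the SNARE bundle, Rab3 GTPases and their effectors tether vesicles, and NSF with its SNAP adaptors takes spent SNARE bundles apart. Motor neurons use this machinery to release acetylcholine at the neuromuscular junction, and many of its genes begin to be expressed well before synapses mature.

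Of the 29 genes, 26 had a probe on the array and 22 had a probe detected (detection p under 0.01) on at least 2 arrays, out of 9679 features tested in the whole series. The array annotation used here lists no probe under the symbols Sv2c, Unc13a and Sncb. Snap25, which encodes the plasma membrane SNARE SNAP-25, had 1 probe that was detected on 0 of 10 arrays. Rims1, an active zone scaffold, and Rph3a, the Rab3 effector rabphilin, were also detected on 0 of 10 arrays, and Cplx2 (complexin 2) was detected on 1 array, embryonic GFP-high replicate 1. These 4 genes were not tested, and a dim probe does not show that a transcript is absent. Among the 22 tested genes, 13 were detected on all 10 arrays: Syp, Syngr3, Sv2a, Syn1, Syt4, Syt11, Vamp2, Stx1a, Cplx1, Nsf, Napb, Dnajc5 and Sncg. Rab3a, Syn2 and Sypl were detected on 9 arrays, Vamp1 on 8, Syngr1 and Syt1 on 7, Sv2b on 6, Rab3b on 4 and Rab3c on 2. Levels below are normalized log2 intensities of the brightest probe of a gene, which can be compared between arrays for that gene and not between genes.

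The arrays differed in brightness. ES-derived GFP-high replicate 1 had a mean deposited intensity of 3.16 and 2095 detected probes, against 51.3 to 577 and 6921 to 11441 on the other arrays, and its median correlation with the rest was 0.587 against 0.795 to 0.888. Its lowest detected log2 level was 8.68, so that values under this on that array are not measured levels. The labelled cell type was checked against marker genes. Isl1 and Chat, which mark motor neurons, were detected on 4 of 4 and 4 of 4 embryonic arrays, 4 of 4 and 3 of 4 ES-derived arrays and both induced arrays, while Mnx1, the gene of Hb9 itself, was detected in induced cells (2 of 2 arrays) and on 0 of the other 8. Other motor neuron markers were detected on fewer arrays, in the order embryonic, ES-derived and induced: Isl2 on 4, 1 and 0, Lhx3 on 1, 2 and 0, Slc5a7 on 2, 1 and 0 and Prph on 2, 0 and 0. The neuronal genes Elavl3 and Map2 were detected on all 10 arrays, and Tubb3 on 2 embryonic arrays. Muscle markers averaged 7.93 to 8.65 on embryonic arrays, against 4.87 to 5.69 on ES-derived and 4.60 to 4.71 on induced arrays, with 10 of 12 listed genes tested, and Myl1 among them was detected on 4, 2 and 0 arrays of these origins. Mesenchyme markers (13 of 16 listed genes tested, Col1a1 detected on 0 arrays) averaged 7.20 to 7.85, 4.89 to 6.13 and 4.78 to 5.09 in the same order. Pluripotency markers (8 of 10 listed genes tested) averaged 6.14 to 10.4 on ES-derived arrays, against 4.69 to 5.02 and 4.72 to 4.77 on embryonic and induced arrays. In such bulk samples, fewer cells of a type and less RNA per cell cannot be told apart.

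With all 10 arrays, no vesicle gene passed an adjusted p of 0.05 (limma, Benjamini-Hochberg over all 9679 features) in any comparison. The genes nearest to it separated induced cells from the rest. Syn1, encoding synapsin I, was higher on both induced arrays than on any of the other 8 arrays, and Vamp1, the synaptobrevin of motor axons, than on 7 of them. For Syn1 this holds with the probe used, while with its other probe ES-derived GFP-high replicate 1 lay above both induced arrays. On ES-derived GFP-high replicate 1 Vamp1 was not detected, and the limit of 8.68 there lies above 1 of the 2 induced values, so that array cannot be ranked. The fitted folds over embryonic cells were 7.35 for Vamp1 and 3.46 for Syn1. Sncg, encoding gamma-synuclein, lay at the opposite end, 5.91-fold lower in induced than in embryonic cells. None of these 3 differences passed, with adjusted p-values of 0.171, 0.136 and 0.328, and 14 of the 18 genes detected on both induced arrays lay there inside the range of the other arrays that detected them. That last count was not taken over all features, so it does not set the vesicle genes apart.

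**Figure D1:**
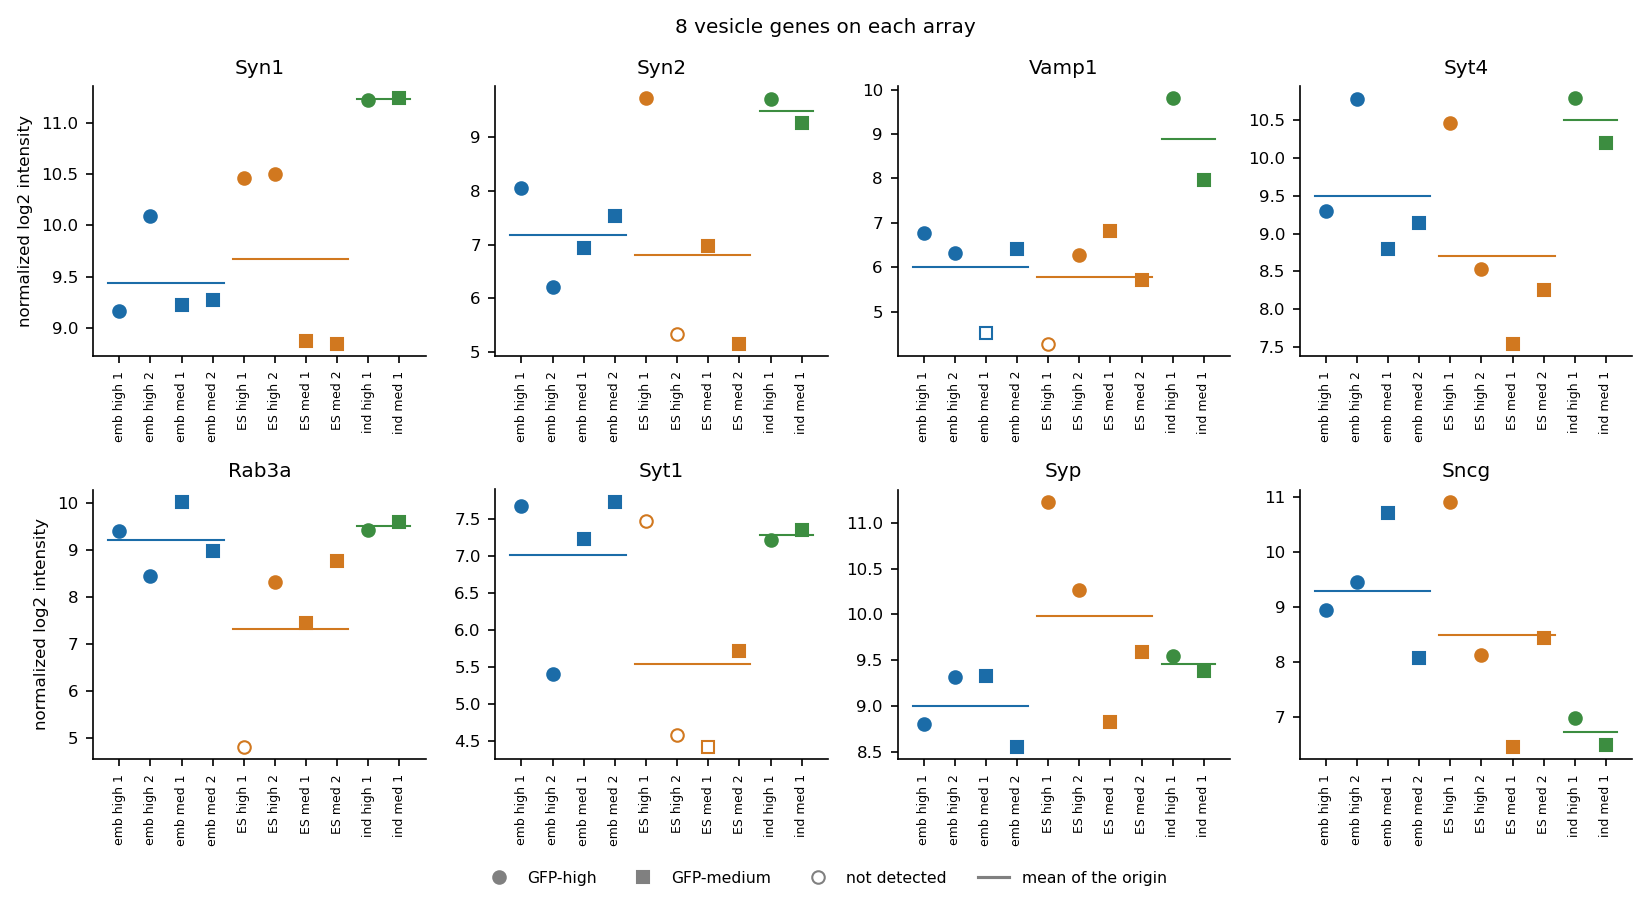
Normalized log2 intensity (y axis) of 8 vesicle genes on each of the 10 arrays (x axis, emb: embryonic, ES: ES-derived, ind: induced, med: GFP-medium). Points are arrays, circles GFP-high and squares GFP-medium, open where the probe was not detected, and lines are means of an origin. Syn1, by the probe used, lies higher on both induced arrays than on the other 8, and Vamp1 higher than on 7 of them, with an open point on ES-derived GFP-high replicate 1 that has no measured level. Sncg lies lower on the induced arrays than on the 4 embryonic ones.

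For ES-derived against embryonic cells, 0 of 22 vesicle genes passed, where 0.899% of all features did, and 1 gene (Rab3a, lower) had an unadjusted p under 0.05, where 11.1% of all features did. No vesicle gene had arrays of these 2 origins that did not overlap, against 7.3% of all features. The 22 genes had a median log2 difference of -0.21, beside -0.13 over all features, and 16 of them lay below 0. Without ES-derived GFP-high replicate 1 the median was -0.46, beside 0.03 over all features, and still 0 of 22 passed, where 2.85% of features did. Without the 3 dimmest arrays (that one, embryonic GFP-medium replicate 1 and ES-derived GFP-medium replicate 1) 0 of 22 passed, where 4.2% of features did.

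For induced against embryonic cells, 0 of 22 passed, where 1.27% of all features did. Syn1, Vamp1 and Sncg had an unadjusted p under 0.05, or 3 of 22, where 12.6% of all features did. The arrays did not overlap for 8 of 22 genes, against 40.3% of all features: Syp, Syn1, Syn2, Vamp1, Vamp2 and Cplx1 were higher on both induced arrays than on all 4 embryonic ones, and Sypl and Sncg were lower. The median difference was 0.33, beside -0.02 over all features, and -0.10 beside -0.44 under median scaling of the arrays in place of quantile normalization. Pan-neuronal markers averaged 8.60 to 9.39 on embryonic and 8.99 to 9.17 on induced arrays, and the muscle and mesenchyme levels given above also set these origins apart. The part of those cells in the vesicle gene values was not tested. The calls in this comparison changed with the arrays used. Without ES-derived GFP-high replicate 1, Syn1 and Vamp1 passed as higher in induced cells, 2 of 22 where 6.72% of features passed. Without the 3 dimmest arrays 5 genes passed, Syn1, Syn2 and Vamp1 as higher and Sv2b and Sncg as lower, where 17% of features passed.

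For induced against ES-derived cells, 0 of 22 passed, where 0.806% of all features did. Syn1, Syn2, Syt4, Vamp1 and Rab3a, all higher in induced cells, had an unadjusted p under 0.05, where 11.9% of all features did. Arrays did not overlap for Syn1, Vamp1 and Rab3a, 3 of 22 genes against 21.3% of all features, with Vamp1 and Rab3a not detected on ES-derived GFP-high replicate 1. The limit of 8.68 there lies below both induced values of Rab3a and above 1 of those of Vamp1, for which the separation was therefore not measured on that array. For Syn1 the separation holds with the probe used and not with its other probe. The median difference was 0.39, beside 0.08 over all features. Without ES-derived GFP-high replicate 1, Syn2 and Syt4 passed as higher in induced cells, where 4.19% of features passed, and without the 3 dimmest arrays Syn2, Syt4 and Vamp1 passed as higher and Sv2b as lower, where 11.5% of features passed. The comparisons of induced cells with the other origins share the same 2 induced arrays, so they are not separate evidence.

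**Figure D2:**
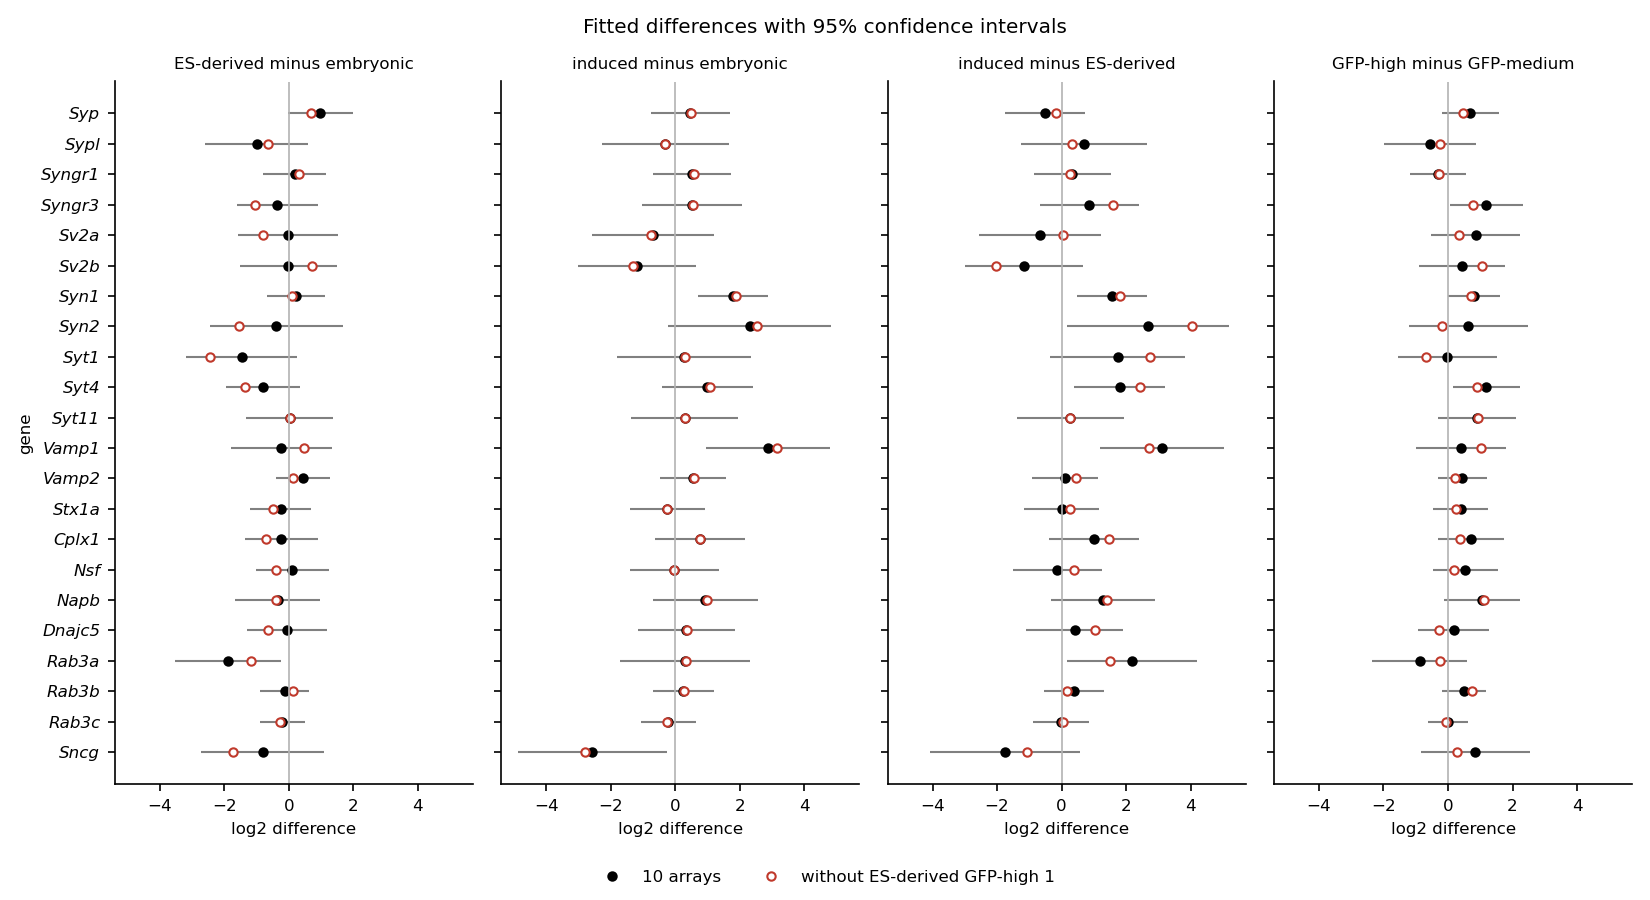
Fitted log2 difference (x axis) of the 22 tested vesicle genes (y axis, ordered by role) in the 4 comparisons of the additive limma fit. Filled points with bars are values and 95% confidence intervals from 10 arrays, and open points are values without ES-derived GFP-high replicate 1. Vamp1 at 2.88 and Sncg at -2.56 lie farthest from 0 for induced minus embryonic cells, and the open and filled points part most for Syn2 in induced minus ES-derived cells.

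Among the vesicle membrane proteins, Syp (synaptophysin, an abundant vesicle tetraspan protein) read 8.80 and 9.32 on the embryonic GFP-high arrays and 9.33 and 8.56 on the GFP-medium arrays. On the ES-derived arrays it read 11.23 and 10.27 in the GFP-high gate and 8.83 and 9.59 in the GFP-medium gate, and on the induced arrays 9.55 and 9.38. After normalization the ES-derived GFP-high arrays were thus the highest, while the ES-derived GFP-medium arrays lay within and just above the embryonic range. Before it, ES-derived GFP-high replicate 1 had the lowest Syp intensity of the series, 38.6 against 163 to 5521, so its top rank depends on the normalization. The fitted difference of ES-derived from embryonic cells was 0.98 ± 0.45 (SE, adjusted p = 0.462). Over 20 alternative settings it ranged from -0.19 to 1.26. Sypl, a synaptophysin-like protein that is not confined to neurons, spanned 9.51 to 10.06 on embryonic, 7.28 (not detected, on GFP-high replicate 1) to 11.13 on ES-derived and 9.29 to 9.43 on induced arrays.

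Syngr3, a synaptogyrin that belongs to the same tetraspan family, read 9.74 on ES-derived GFP-high replicate 1 and 7.80, 6.15 and 6.74 on the other ES-derived arrays, against 7.66 to 8.60 on embryonic and 8.28 to 8.67 on induced arrays. Syngr1 was dim, with highest values of 5.77 on embryonic, 6.05 on ES-derived and 6.40 on induced arrays. Sv2a, a vesicle glycoprotein known as the binding site of the drug levetiracetam, spanned 6.41 to 8.39 on embryonic, 6.27 to 9.64 on ES-derived and 6.67 to 6.73 on induced arrays, and the groups overlapped.

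Sv2b, another SV2 glycoprotein, read 6.63 and 5.78 on the embryonic GFP-high arrays, 4.40 (not detected) and 6.25 on the GFP-medium arrays, 4.22 (not detected) and 7.18 on the ES-derived GFP-high arrays and 5.98 and 5.62 on the ES-derived GFP-medium arrays. On the induced arrays it read 4.86 and 4.29 and was detected on neither. Detection was thus found on 3 of 4 embryonic, 3 of 4 ES-derived and 0 of 2 induced arrays. Taking the induced arrays at their lowest detected level gives a bound: Sv2b was at least 1.48-fold lower in induced than in embryonic cells and at least 1.47-fold lower than in ES-derived cells (adjusted p = 0.664 and 0.642). The embryonic and ES-derived means behind these folds include the undetected values as they stood.

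Synapsins coat vesicles and hold them in the reserve pool. Syn1 (synapsin I) read 9.17 and 10.09 on the embryonic GFP-high arrays, 9.22 and 9.27 on the embryonic GFP-medium arrays, 10.46 and 10.50 on the ES-derived GFP-high arrays, 8.87 and 8.85 on the ES-derived GFP-medium arrays and 11.22 and 11.24 on the induced arrays. Both induced values exceeded every other array, and the ES-derived cells split by gate, with both GFP-high arrays above both GFP-medium ones. These are values of the probe used, and the other Syn1 probe placed ES-derived GFP-high replicate 1 above both induced arrays. The fitted difference of induced from embryonic cells was 1.79 ± 0.49 (adjusted p = 0.136) and from ES-derived cells 1.56 ± 0.49 (adjusted p = 0.233). Over 20 alternative settings the first difference ranged from 1.25 to 2.27 and passed in 3.

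Syn2 (synapsin II) read 8.05 and 6.21 on the embryonic GFP-high arrays and 6.94 and 7.54 on the GFP-medium arrays, and 9.71 and 9.26 on the induced arrays. The ES-derived arrays read 9.73, 5.34 (not detected), 6.98 and 5.15, in the same order of gates. The highest of these, 9.73, was ES-derived GFP-high replicate 1, and the other 3 ES-derived arrays lay below both induced arrays and within or below the embryonic range. Induced minus ES-derived cells gave 2.69 ± 1.12 (adjusted p = 0.390) with that array and 4.05 (adjusted p = 0.0169) without it, and induced minus embryonic cells gave 2.30 ± 1.12 (adjusted p = 0.457).

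The promoters of the genes that lay farthest apart are shown because Syn1, Syn2, Vamp1 and Sncg had the largest differences of induced from embryonic cells among the vesicle genes. Each is 300 bases from the RefSeq table for GRCm38.p6, 5′ to 3′ on the gene's strand, and 24 of the 29 genes had an entry. Capitals mark a cyclic AMP response element (CRE, TGACGTCA), a GC box (GGGCGG, the core of the site that Sp1 recognises) or the opening letters of the RE1 element (TTCAGCACC), which the neuronal repressor REST recognises. Both strands were searched, no matches in the printed windows overlap, and the RE1 letters were chosen after the Syn1 promoter had been seen. The windows lie at chrX:20920869-20921168 on the minus strand (Syn1), chr6:115134652-115134951 on the plus strand (Syn2), chr6:125215331-125215630 on the plus strand (Vamp1) and chr14:34374620-34374919 on the minus strand (Sncg).
Syn1: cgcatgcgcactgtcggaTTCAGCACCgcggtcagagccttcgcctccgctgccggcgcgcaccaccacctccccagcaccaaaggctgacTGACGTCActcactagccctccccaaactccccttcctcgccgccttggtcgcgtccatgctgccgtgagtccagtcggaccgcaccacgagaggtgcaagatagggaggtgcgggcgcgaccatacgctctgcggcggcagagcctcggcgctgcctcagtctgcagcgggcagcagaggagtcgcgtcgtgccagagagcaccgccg
Syn2: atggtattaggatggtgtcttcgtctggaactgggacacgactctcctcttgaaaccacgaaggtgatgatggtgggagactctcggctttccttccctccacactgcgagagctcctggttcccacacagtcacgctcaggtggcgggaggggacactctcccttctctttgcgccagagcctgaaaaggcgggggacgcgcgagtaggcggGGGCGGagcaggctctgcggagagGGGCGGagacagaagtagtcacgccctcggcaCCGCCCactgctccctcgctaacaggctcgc
Vamp1: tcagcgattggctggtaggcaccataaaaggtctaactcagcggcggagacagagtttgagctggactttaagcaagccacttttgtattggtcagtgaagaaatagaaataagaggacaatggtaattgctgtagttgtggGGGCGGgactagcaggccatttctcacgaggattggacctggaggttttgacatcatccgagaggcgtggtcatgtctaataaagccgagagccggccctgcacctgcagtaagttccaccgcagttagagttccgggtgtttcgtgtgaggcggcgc
Sncg: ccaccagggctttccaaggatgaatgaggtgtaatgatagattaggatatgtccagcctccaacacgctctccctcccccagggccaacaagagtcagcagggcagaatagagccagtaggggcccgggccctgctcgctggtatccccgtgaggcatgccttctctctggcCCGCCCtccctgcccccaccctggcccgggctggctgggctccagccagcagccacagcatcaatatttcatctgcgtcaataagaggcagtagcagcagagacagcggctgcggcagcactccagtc
Syn1 held 1 CRE and 1 set of RE1 letters and 0 GC boxes, Syn2 held 3 GC boxes, and Vamp1 and Sncg held 1 GC box each. Among 18 tested vesicle genes with a promoter in the table, 1 held a CRE, 15 a GC box and 1 the RE1 letters in any of their listed promoters. Counted in the same way over all 27025 genes of the table, 2.03% held a CRE, 38.2% a GC box and 0.433% the RE1 letters, and of the 32851 single promoters 1.79%, 35.7% and 0.371% did. A match of letters is a description and not a bound site.

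Synaptotagmins bind vesicles and, in some members, calcium. Syt1, the calcium sensor of fast release, read 7.68 and 5.40 on the embryonic GFP-high arrays and 7.23 and 7.73 on the GFP-medium arrays, and 7.21 and 7.36 on the induced arrays. On the ES-derived arrays it read 7.48, 4.58, 4.42 and 5.72, and only the last, GFP-medium replicate 2, was detected. Detection was therefore complete in embryonic and induced cells and found on 1 of 4 ES-derived arrays. ES-derived minus embryonic cells gave -1.46 ± 0.76 (adjusted p = 0.530), and -2.44 (adjusted p = 0.0658) without ES-derived GFP-high replicate 1.

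Syt4, an unusual synaptotagmin found on dense-core vesicles, read 9.29 and 10.78 on the embryonic GFP-high arrays, 8.79 and 9.14 on the embryonic GFP-medium arrays, 10.46 and 8.54 on the ES-derived GFP-high arrays, 7.55 and 8.26 on the ES-derived GFP-medium arrays and 10.79 and 10.20 on the induced arrays. Both induced arrays were near the top of the series, level with embryonic GFP-high replicate 2 and ES-derived GFP-high replicate 1. Induced minus ES-derived cells gave 1.79 ± 0.63 (adjusted p = 0.283), and 2.42 (adjusted p = 0.0326) without ES-derived GFP-high replicate 1. Syt11, which does not bind calcium, was among the genes detected everywhere. It spanned 11.61 to 12.60 on embryonic and 12.25 to 12.45 on induced arrays, and on ES-derived arrays it read 9.86 in GFP-medium replicate 1 and 13.35 in GFP-high replicate 2.

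Among the SNAREs, Vamp1 (synaptobrevin 1, the vesicle SNARE that predominates at motor nerve terminals) read 6.77 and 6.32 on the embryonic GFP-high arrays and 4.52 (not detected) and 6.42 on the GFP-medium arrays. The ES-derived arrays read 4.29 (not detected), 6.27, 6.82 and 5.72, and the induced arrays 9.80 and 7.97. Both induced arrays lay above 7 of the other 8, the exception being ES-derived GFP-high replicate 1, where the gene was not detected and a level up to 8.68 would not have been measured. The 2 induced arrays differed from each other by 1.83. Induced minus embryonic cells gave 2.88 ± 0.86 (adjusted p = 0.171) and induced minus ES-derived cells 3.11 ± 0.86 (adjusted p = 0.180). Leaving out ES-derived GFP-high replicate 1 made these 3.16 (adjusted p = 0.0235) and 2.71 (adjusted p = 0.0607).

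Vamp2 (synaptobrevin 2, the vesicle SNARE of most brain synapses) spanned 9.20 to 9.55 on embryonic, 9.23 to 10.95 on ES-derived and 9.93 to 10.07 on induced arrays. It lay higher on both induced arrays than on all embryonic ones, by 0.55 ± 0.46 (adjusted p = 0.756). That error is pooled over all 10 arrays, and the SD of Vamp2 was 0.17 on embryonic, 0.75 on ES-derived and 0.10 on induced arrays. The error therefore does not give the scatter of the embryonic and induced arrays alone. Stx1a, encoding syntaxin 1A, the plasma membrane partner, spanned 9.15 to 10.30 on embryonic, 8.86 to 10.22 on ES-derived and 9.42 to 9.49 on induced arrays, and the origins overlapped. Of the 2 vesicle SNAREs, Vamp1 thus had the larger fitted difference of induced from embryonic cells, although the difference between the genes was not tested.

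**Figure D3:**
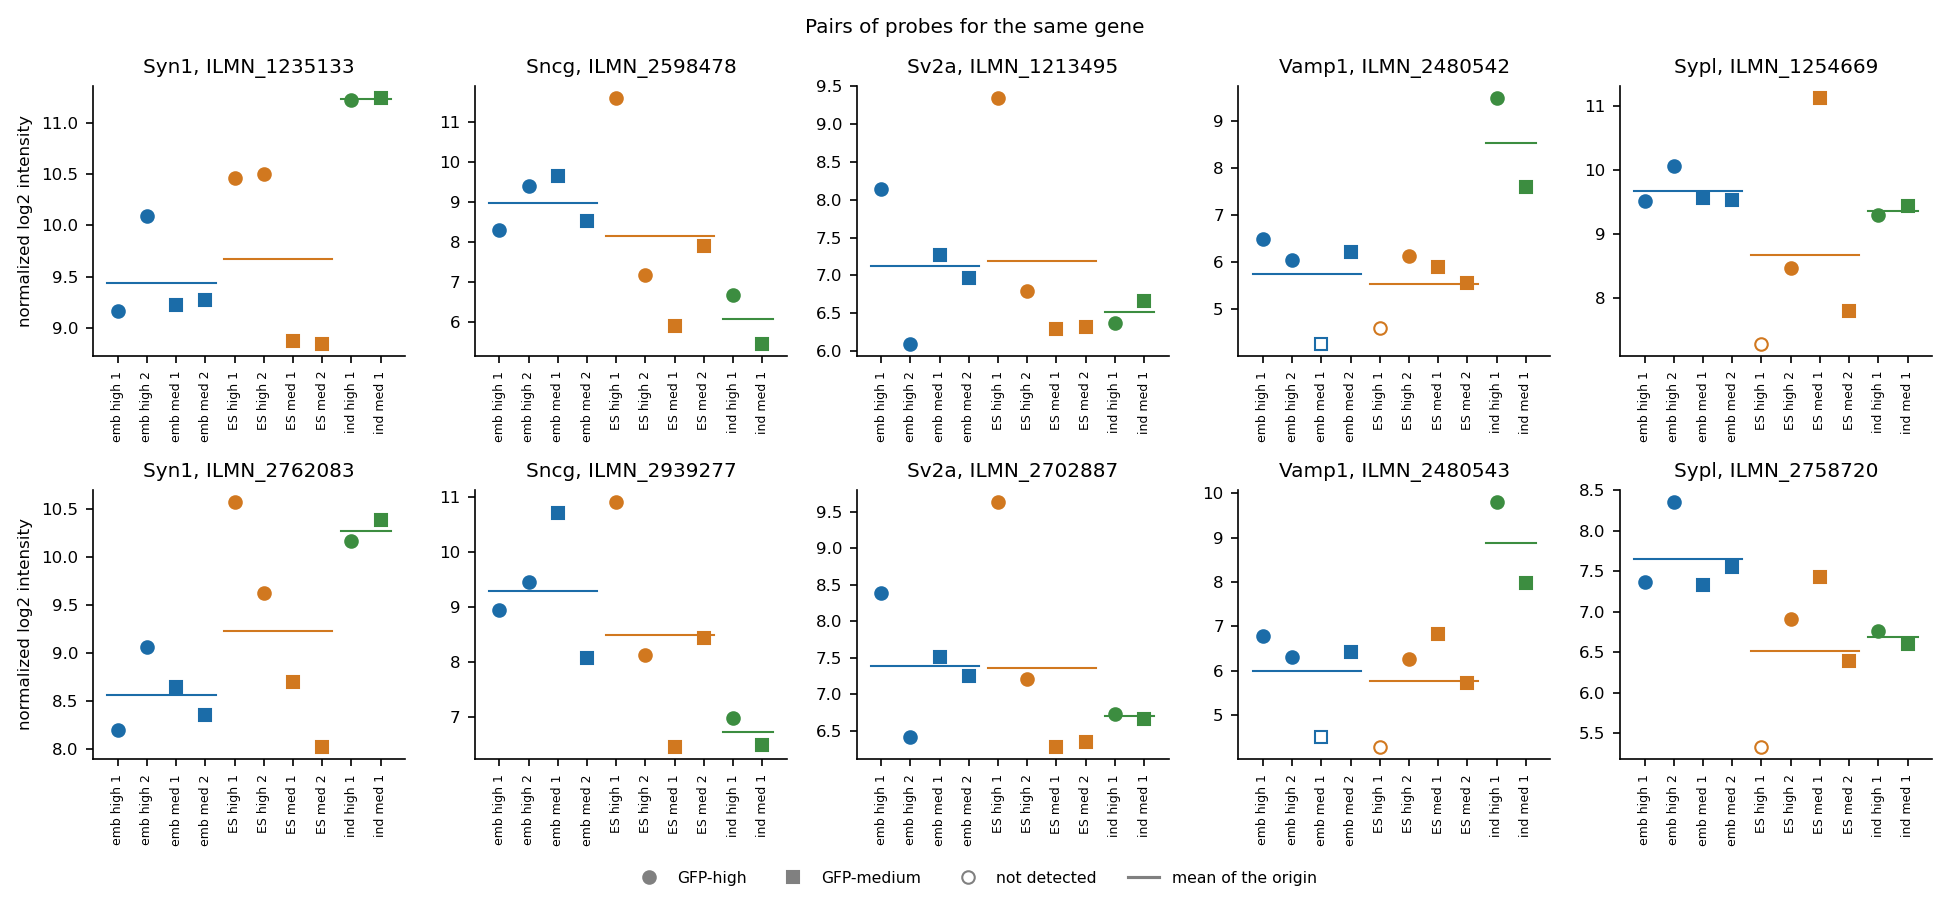
Normalized log2 intensity (y axis) of the pairs of probes of Syn1, Sncg, Sv2a, Vamp1 and Sypl that were detected on 8 to 10 arrays, on each array (x axis, abbreviated as in the plot of 8 genes), with means of each origin as lines and open symbols where not detected. The fitted differences of induced from embryonic cells have the same sign in each pair, at 2.88 and 2.78 for Vamp1, and differ most for Sypl, at -0.30 and -0.97.

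A total of 5 genes had pairs of probes that were detected widely. Their differences of induced from embryonic cells were 1.79 and 1.71 for Syn1, 2.88 and 2.78 for Vamp1, -2.56 and -2.91 for Sncg, -0.69 and -0.61 for Sv2a and -0.30 and -0.97 for Sypl. For induced minus ES-derived cells the Syn1 probes gave 1.56 and 1.05 and the Sypl probes 0.70 and 0.17. With the Syn1 probe that was not used, ES-derived GFP-high replicate 1 lay above both induced arrays. A further Vamp1 probe, detected on 2 arrays, gave -0.10 ± 0.45, and was not the probe used. Probes of 1 gene share the RNA and the arrays, so they are not replicates.

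Among SNARE regulators and chaperones, Cplx1 (complexin 1) read 10.46 to 11.36 on embryonic, 9.38 to 12.17 on ES-derived and 11.64 to 11.68 on induced arrays, where both induced arrays lay above the 4 embryonic ones. The fitted difference was 0.76 ± 0.62 (adjusted p = 0.742). Nsf, the ATPase that recycles SNARE bundles, spanned 8.03 to 8.44 on embryonic, 7.11 to 9.86 on ES-derived and 8.01 to 8.38 on induced arrays. Napb, a SNAP adaptor of NSF in brain, spanned 9.44 to 10.77, 7.33 to 10.71 and 10.50 to 11.10. Dnajc5, the cysteine string protein that chaperones SNAP-25, spanned 8.48 to 9.58, 8.13 to 10.48 and 9.26 to 9.54. For Nsf, Napb and Dnajc5 the 3 origins overlapped, with the ES-derived arrays spread the widest.

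Rab3 GTPases sit on vesicles and recruit effectors at the active zone. Rab3a, the main neuronal form, read 9.41 and 8.43 on the embryonic GFP-high arrays, 10.02 and 8.99 on the embryonic GFP-medium arrays, 4.81 (not detected) and 8.31 on the ES-derived GFP-high arrays, 7.44 and 8.76 on the ES-derived GFP-medium arrays and 9.43 and 9.60 on the induced arrays. The ES-derived arrays lay below both induced arrays and partly within the embryonic range. ES-derived minus embryonic cells gave -1.88 ± 0.73 (adjusted p = 0.363), and -1.18 (adjusted p = 0.239) without the array where the probe was not detected. Induced minus ES-derived cells gave 2.18 ± 0.90 (adjusted p = 0.380).

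Rab3b was dim. It was detected on 4 of 5 GFP-high arrays, at 5.17 and 5.03 in embryonic cells, 5.52 in ES-derived cells and 5.35 in induced cells, and on 0 of 5 GFP-medium arrays. The fifth GFP-high array was ES-derived GFP-high replicate 1, where the probe's value of 4.31 lay below that array's lowest detected level. Set against the lowest detected levels of the GFP-medium arrays, the GFP-high values give no fold (adjusted p = 0.962). Rab3c was detected on 2 embryonic arrays only, at 4.71 and 5.12, which allows no fold against the arrays where it was not detected.

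Sncg (gamma-synuclein, a synuclein abundant in peripheral and motor neurons) read 8.95 and 9.47 on the embryonic GFP-high arrays, 10.72 and 8.09 on the embryonic GFP-medium arrays, 10.92 and 8.14 on the ES-derived GFP-high arrays, 6.46 and 8.44 on the ES-derived GFP-medium arrays and 6.99 and 6.50 on the induced arrays. Both induced arrays lay below all 4 embryonic ones, while 1 ES-derived array, GFP-medium replicate 1, lay lower still. Induced minus embryonic cells gave -2.56 ± 1.03 (adjusted p = 0.328), and -2.80 (adjusted p = 0.0678) without ES-derived GFP-high replicate 1.

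For GFP-high against GFP-medium cells 0 of 22 genes passed, where 0% of all features passed in the limma fit, and 2 genes (Syngr3 and Syt4) had an unadjusted p under 0.05, where 2.08% of all features did. Their differences were 1.18 ± 0.50 and 1.18 ± 0.46 (adjusted p = 0.962 for both). No gene had gates that did not overlap, against 0.248% of features. The median over the 22 genes was 0.51 in favour of GFP-high cells, beside -0.06 over all features, and 0.30 beside 0.06 without ES-derived GFP-high replicate 1. Within an origin the median gate difference was 0.07 in embryonic, 1.12 in ES-derived and 0.24 in induced cells, beside 0.07, -0.20 and 0.00 over all features. Without ES-derived GFP-high replicate 1 the ES-derived median was 0.73, beside 0.07.

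A test of the gate difference itself between origins was run on the 6 group means. For ES-derived against embryonic cells 0 of 22 genes passed, where 0% of features did, and 0 of the 22 had an unadjusted p under 0.05, where 1.61% of features did. Syn1 illustrates the width of the estimate, at 1.24 ± 0.76 for the difference of gate differences (adjusted p = 0.999). Against embryonic cells, induced cells gave 0 genes with an unadjusted p under 0.05, where 0.217% of features had one. Against ES-derived cells Syngr1 was the 1 such gene, where 1.18% of features had such a p. It was detected on neither ES-derived GFP-high array and not on the induced GFP-medium array, so no size is given (adjusted p = 0.9999).

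**Figure D4:**
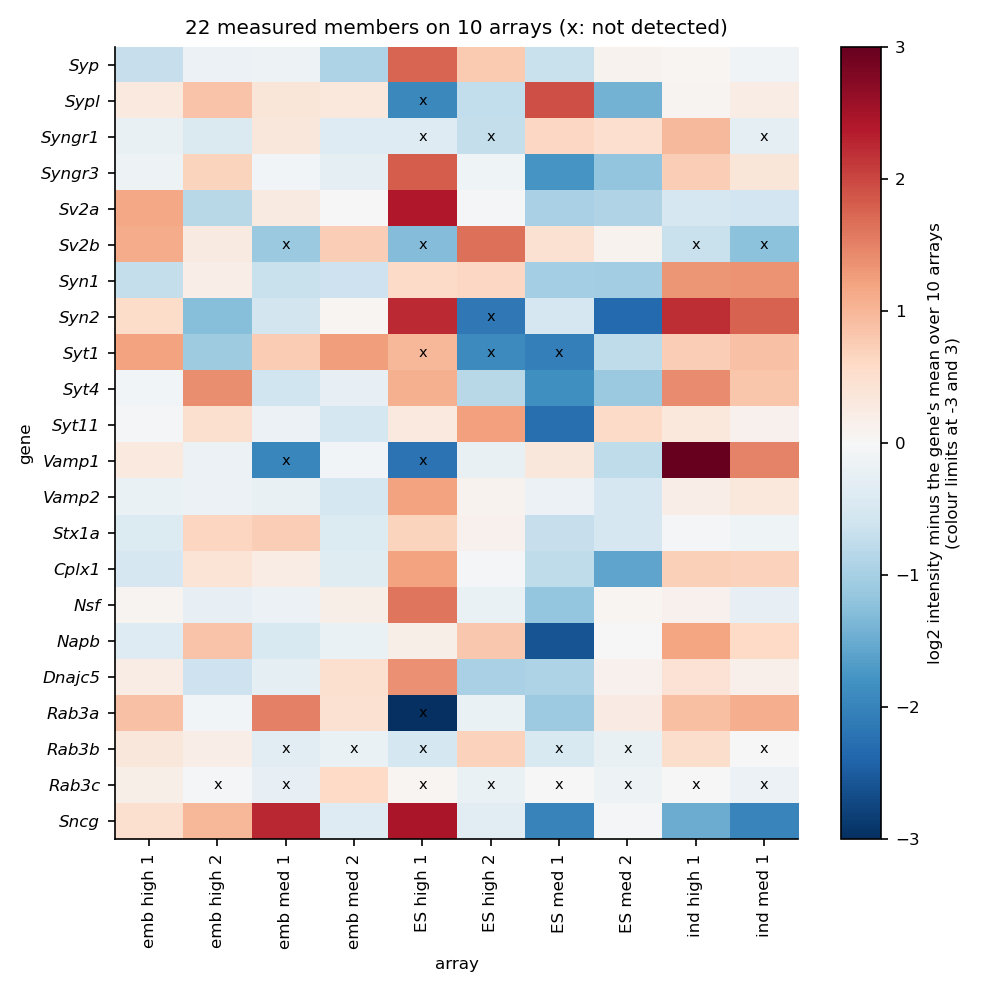
Normalized log2 intensity of each of the 22 tested vesicle genes (y axis, ordered by role) on each array (x axis, abbreviated as in the plot of 8 genes), minus the gene's mean over the 10 arrays, on a colour scale limited at -3 and 3. Crosses mark arrays where the probe was not detected. In the ES-derived columns, GFP-high replicate 1 holds the highest value of 9 genes and GFP-medium replicate 1 the lowest value of 9.

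The ES-derived arrays were the most variable. The median SD of the 22 genes was 0.464 over the 4 embryonic arrays and 1.20 over the 4 ES-derived arrays, and it was larger in ES-derived cells for 20 of 22 genes. With that origin reduced to 3 arrays, leaving out GFP-high replicate 1, the median was 0.715 and the SD was larger for 14 of 22 genes. Neither these counts nor the counts of highest and lowest values below were taken over all features, so they do not set the vesicle genes apart. After normalization, ES-derived GFP-high replicate 1 held the highest value of 9 genes, and 14 of the 22 genes were detected on it. Its value was the lowest of the series for 5 genes (Rab3a, Rab3b, Sv2b, Sypl and Vamp1), none of which it detected, so these are not measured levels and enter the SD over 4 arrays as they stand. ES-derived GFP-medium replicate 1 held the lowest value of 9 genes, among them Napb at 7.33 and Syt11 at 9.86. On the same array the pan-neuronal markers averaged 6.54 (15 of 16 listed genes tested), against 8.28 to 9.97 on the other ES-derived arrays, and the pluripotency markers averaged 10.4, against 6.14 to 7.59. Whether cells with these markers contributed to the vesicle gene values was not tested.

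**Figure D5:**
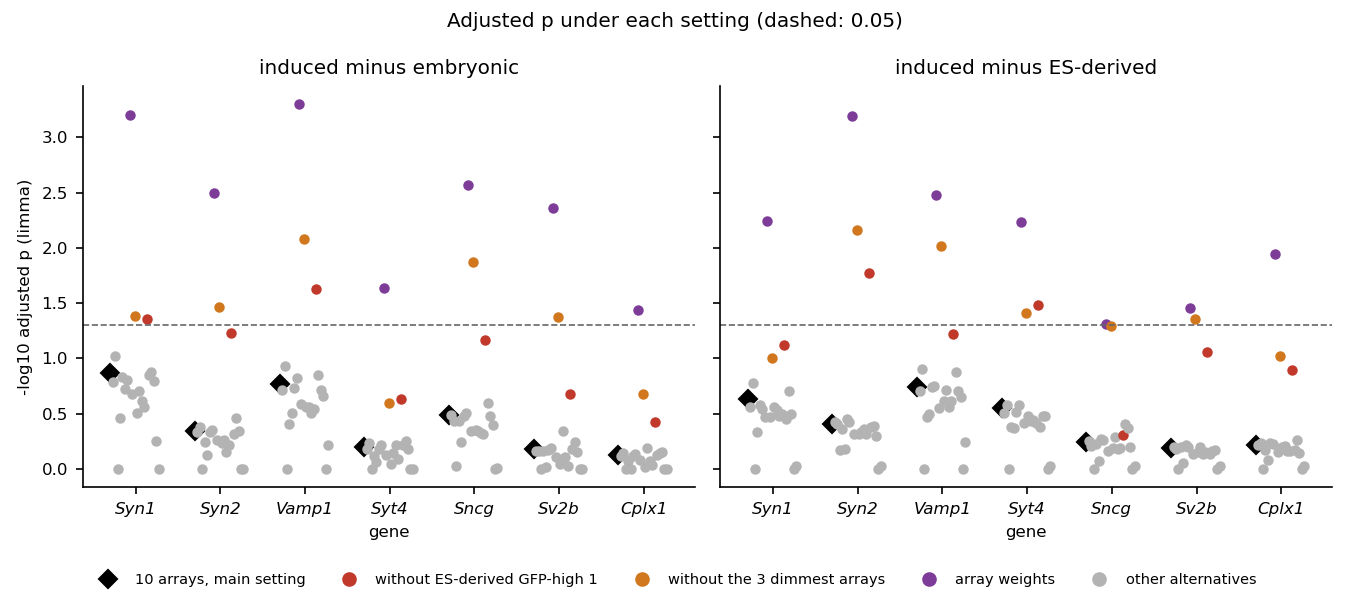
Adjusted p (y axis, as -log10, limma) of 7 vesicle genes (x axis) for induced minus embryonic and induced minus ES-derived cells, under the main setting with 10 arrays (diamonds) and under each alternative (circles), with 0.05 as the dashed line. Points above the line come from array weights and from leaving out the dimmest array or the 3 dimmest arrays, as with Vamp1 at an adjusted p of 0.0235 without ES-derived GFP-high replicate 1.

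The surrounding machinery was covered by 6 lists of further genes, with 71 of 129 listed genes tested. Of these, 1 gene passed with 10 arrays for induced against embryonic cells, where 1.27% of all features did: Slc17a6, which encodes the vesicular glutamate transporter VGLUT2. It read 11.04 and 10.39 on the embryonic GFP-high arrays, 8.39 and 10.92 on the embryonic GFP-medium arrays, 9.24 and 6.42 on the ES-derived GFP-high arrays, 7.09 and 7.17 on the ES-derived GFP-medium arrays and 5.56 and 5.44 on the induced arrays. The induced arrays were lower than every other array, and the difference of induced from embryonic cells was -4.68 ± 0.85 (adjusted p = 0.0313). ES-derived minus embryonic cells gave -2.70 ± 0.69 (adjusted p = 0.140), and -3.52 (adjusted p = 0.0227) without ES-derived GFP-high replicate 1. The vesicular acetylcholine transporter gene of motor neurons, Slc18a3, was detected on 0 embryonic, 1 ES-derived and 0 induced arrays and was not tested.

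No gene passed in the other 5 lists with 10 arrays, so the gene with the lowest p of each list is given as a value. Among other synaptotagmins and calcium sensors (5 of 17 tested), Syt16 gave -2.05 ± 0.86 for induced minus embryonic cells (adjusted p = 0.353). Among other SNAREs and their binding proteins (19 of 29 tested), Snap23, a SNAP-25 relative of non-neuronal cells, was detected on 0 of 2 induced arrays and was at least 2.61-fold lower there than in embryonic cells (adjusted p = 0.218). Among active zone, priming and Rab3 cycle genes (17 of 32 tested), Unc13b, a Munc13 priming factor, gave -1.39 ± 0.43 (adjusted p = 0.182). Among other vesicle membrane proteins (11 of 17 tested), Scamp5 gave 1.11 ± 0.42 (adjusted p = 0.292), and among vesicle endocytosis genes (16 of 27 tested) Dnajc6, the clathrin uncoating factor auxilin, gave -2.16 ± 0.77 (adjusted p = 0.253).

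The lowest p of a list in the other comparisons fell partly on other genes and partly on the same ones. For ES-derived minus embryonic cells these were Doc2b at 1.01 ± 0.47, Vamp8 at -1.06 ± 0.48, Cadps2 at -1.75 ± 0.63, Rabac1 at -1.68 ± 0.91 and Bin1 at -3.01 ± 0.69, with adjusted p-values from 0.0981 (Bin1, an amphiphysin) to 0.550 (Rabac1). Doc2b, Vamp8, Cadps2 and Bin1 were each detected on 2 of 4 ES-derived arrays. Their sizes therefore rest partly on values that are not measured levels. For induced minus ES-derived cells they were Syt16 at -1.15 ± 0.86, Vamp4 at 1.08 ± 0.44, Unc13b at -1.17 ± 0.43, Scamp5 at 1.71 ± 0.42, Slc17a6 at -1.98 ± 0.85 and Snap91, which was detected on 0 of 4 ES-derived arrays and was at least 1.85-fold higher in induced cells. Their adjusted p-values ran from 0.134 (Scamp5) to 0.673 (Syt16). For GFP-high minus GFP-medium cells they were Syt16 at 1.35 ± 0.63, Napg at 0.75 ± 0.34, Erc2 at 1.07 ± 0.41, Atp6ap2 at 0.64 ± 0.29, Dnajc6 at 1.33 ± 0.56 and Slc32a1, the vesicular GABA transporter, at -1.53 ± 0.98, all at an adjusted p of 0.962. Slc32a1 was detected on neither ES-derived GFP-high array and on neither induced array, so its size rests partly on values that are not measured levels. With ES-derived GFP-high replicate 1 left out, 6 of the 71 genes passed for induced minus embryonic cells, where 6.72% of all features did: Rims3 as higher, and Syt16, Snap23, Slc17a6, Slc32a1 and Dnajc6 as lower. Snap23 and Slc32a1 were detected on neither induced array, so the sizes of these differences were not measured. For induced minus ES-derived cells Scamp5 then passed as higher, 1 of 71 where 4.19% of all features passed, at 1.58 (adjusted p = 0.0474).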

How the data were processed

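RNA of FACS-purified cells was extracted with Trizol, amplified in 2 rounds and labelled with biotin, per the labels. The main table, deposited without normalization between arrays, gives linear intensity, and BeadStudio is the tool that the submitters' processing notes name. Values below 0 in it show that background was subtracted before deposit. Beside every intensity stands a detection p-value, per the file headers, which never rises with intensity on its array. Another deposited table holds the authors' normalized intensity, by a method not stated in the labels or headers, and served as an alternative only.

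Values were corrected with normexp in limma 3.58.1 (R 4.3.3) from the detection p-values with an offset of 16, brought to log2 and quantile normalized. A detection p under 0.01 on 2 or more arrays was required, which kept 11915 of 25697 probes, and the brightest probe on average stood for its gene, giving 9679 features. Of all probes, 23978 had 1 symbol, 0 several and 1719 none, and the symbols can be old.

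An additive limma fit of origin and gate over 10 arrays (6 residual degrees of freedom) was adjusted by Benjamini-Hochberg over all features at 0.05, two-sided, and the 6-group fit (4 residual degrees of freedom) tested gate by origin. Differences are log2 values ± SE. Where no array of a group detected a gene, only a bound is given: its fold compares the bright group's mean with the dim group's mean of the higher of its own value and the array's lowest detected level. Undetected values in the bright group enter its mean as they stand. All 29 members are named, and from the 6 further lists any called gene or else the gene with the lowest p. Members and lists were chosen with earlier results of these data known. The number of arrays limits the precision. Alternatives covered background correction, normalization, filter, probe summary, array weights, a replicate block and leaving out arrays.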

Additional observations from a re-analysis of the deposited data

Results flagged for a closer look

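In 3 of 44 sets of 4 arrays (22 vesicle genes in embryonic and in ES-derived cells), 1 array stood apart from the others by Dixon's test at 95%, a test that flags about 1 set in 20 by chance. Syn1 read 10.0886 on embryonic GFP-high replicate 2, against 9.17 to 9.27 on the other embryonic arrays. Sypl read 10.0581 on that array, against 9.51 to 9.57 on the others. Vamp2 read 9.2009 on embryonic GFP-medium replicate 2, against 9.52 to 9.55 on the others.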

How the results depend on the processing

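Of the alternatives run, those on background correction, normalization, detection filter and probe summary left 0 vesicle genes past the threshold in every comparison. They tested 26 vesicle genes without a detection filter, 20 with detection on 5 or more arrays and 22 otherwise. With array weights from limma, in which ES-derived GFP-high replicate 1 weighed 0.0772, the counts were 1 for ES-derived against embryonic cells (Syt1, lower), 7 for induced against embryonic cells (5 higher, 2 lower) and 9 for induced against ES-derived cells (7 higher, 2 lower), while 550, 3135 and 1581 of all features passed. Without the 3 dimmest arrays the last 2 counts were 5 and 4. Leaving out 1 array at a time gave 0 to 2 genes for induced against embryonic cells and 0 to 2 for induced against ES-derived cells, the 2 in each case without ES-derived GFP-high replicate 1. It gave 0 to 1 for the gate difference of ES-derived against embryonic cells, the 1 being Syngr3 without ES-derived GFP-high replicate 2, where that gate rests on the dimmest array alone and 1411 of all features passed. The cause of these changes was not tested.

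Arrays with the same origin and replicate number were entered as a random replicate block, and as a fixed block for the gates. The block left 0 vesicle genes past the threshold in every comparison, with 71, 89 and 57 features called between origins. Deviations of same-numbered arrays correlated at -0.0905 in embryonic and 0.0994 in ES-derived cells, over 2 arrays a gate, and the consensus correlation within blocks was 0.11, which does not establish a pairing.

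Under median scaling the median of all features moved to -0.58 for ES-derived and -0.44 for induced against embryonic cells, and the vesicle genes had medians of -1.31 and -0.10. Syn1, Vamp1, Syn2, Syt4, Sncg and Sv2b kept their sign for induced cells against both other origins in every alternative. So did Cplx1, Napb and Sypl, so a kept sign does not set the first genes apart. Over the 22 genes and 4 comparisons, no called value changed sign, while 64 values with an array left out and 47 in the other alternatives had another sign than in the main setting with neither called. The dimmest array, with 2095 detected probes, and the pair of induced arrays limit what these comparisons can show.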
